A study of Saccharomyces cerevisiae with 51 samples.

Results

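The genes described here encode the parts of RNA polymerase I that no other polymerase uses, together with its initiation factor: RPA190, RPA135, RPA49, RPA43, RPA34, RPA14, RPA12 and RRN3. They were chosen by name, and all 8 were found among the 6840 genes of the metabolic-cycle RNA table and the 6821 genes of the rapamycin RNA table. The ATAC table lists 5193 genes and holds all of them but RPA190. RNA polymerase I transcribes a single kind of gene, the repeated ribosomal DNA unit, into the precursor of the large ribosomal RNAs. In growing yeast this is the most abundant transcription in the cell, and it is known to depend on nutrients and on the TORC1 kinase. The genes of the polymerase belong to the ribosome biogenesis regulon, whose transcripts are known to accumulate when cells grow and to fall when growth signals are withdrawn.

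The series compared arp5∆ with wild type in budding yeast (*Saccharomyces cerevisiae*) in continuous culture, where cells pass together through metabolic cycles. The arp5∆ strain is CEN.PK with ARP5, a subunit gene of the nucleosome remodelling complex INO80, replaced by a KAN cassette, and the wild type is CEN.PK. Both carry the same 6 phase labels: RC (reductive charging) start and mid, OX (oxidative) mid and late, and RB (reductive building) start and late. Each combination had RNA libraries A and B, technical replicates from separate RNA preparations of 1 culture, so that p-values measure technical spread and each genotype rests on 1 culture. A further 24 ATAC libraries, which measure how open chromatin is to a transposase, came from the same labels. The rapamycin set came from asynchronous mid-log cultures of BY4741, a laboratory strain lacking LEU2 and MET17, with 2 biological replicates each of a control and of cells after 45 and 90 min with rapamycin at 30 nM, which inhibits TORC1. The treatment text of the control names rapamycin too, and its title was followed.

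Values are FPKM, fragments per kilobase of gene scaled by a factor for each library, so levels of different genes can be set side by side. Low values showed 5.02 to 9.67 M reads on genes in the cycle libraries and 9.44 to 13.6 M in the rapamycin libraries. Behind single values of the polymerase I genes stood 37 reads (RPA43) to 6988 reads (RPA135) in the cycle set and 76 (RPA43) to 8086 (RPA135) in the rapamycin set. ARP5 was listed at 0 FPKM in 11 of 12 arp5∆ libraries and had 0.0649 FPKM in the other, against 46.4 to 55.8 FPKM in the wild-type libraries. LEU2 was listed at 0 in 4 of 6 BY4741 libraries and MET17 in 5 of 6. The phase labels of the cultures did not run in parallel. Over 4109 other genes that cycled in at least 1 genotype, each centred on its mean within a genotype, the arp5∆ libraries labelled RC start had r = 0.86 with wild-type OX mid and r = -0.85 with wild-type RC start. All 6 labels had a negative r with their own label in the other genotype. Differences at a shared label therefore include this shift, and whether it lies in the cells or in the time of sampling cannot be told apart.

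RPA190 and RPA43 are neighbours on chromosome XV. RPA190 lies at 960987 to 965981 on the plus strand and RPA43 at 959202 to 960182 on the minus strand, so that they are read away from each other across 804 bp (RefSeq R64, the assembly that sacCer3 names). RPA34 (140437 to 141138) and RPA12 (555195 to 555572) lie on the plus strand of chromosome X. RPA135 lies on XVI (577585 to 581196, minus), RPA49 on XIV (181361 to 182608, minus), RPA14 on IV (769525 to 769938, plus) and RRN3 on XI (208247 to 210130, plus). RPA14 overlaps the annotated gene YDR157W, and strand handling is not stated in the sources used here, so reads of that pair may not be told apart.

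Over the cycle, the transcripts of the 7 subunit genes swung together in both cultures, with a smaller swing in arp5∆, and RRN3 followed them less closely in wild type. All 8 had their highest mean in the arp5∆ libraries labelled RC start, as did 32.5% of all genes. In wild type all 8 had it at OX mid, as did 37.1% of all genes. For RRN3 the wild-type OX mid libraries (37.2 and 37.5 FPKM) lay between those of RC mid (33.3 and 37.7). Its arp5∆ libraries at RC start (22.3 and 20.0) overlapped those at RB late (18.2 and 20.0). The largest subunit gene RPA190 spanned 5.74-fold between its highest and lowest phase in arp5∆, against 29.3-fold in wild type. RPA135, the gene of the second-largest subunit, spanned 8.45-fold in arp5∆ against 38.8-fold in wild type. The initiation factor gene RRN3 spanned 1.65-fold in arp5∆ against 2.55-fold in wild type, less than any subunit gene. RNA was taken from whole cultures, so fewer cells with a transcript and less of it per cell cannot be told apart.

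**Figure D1:**
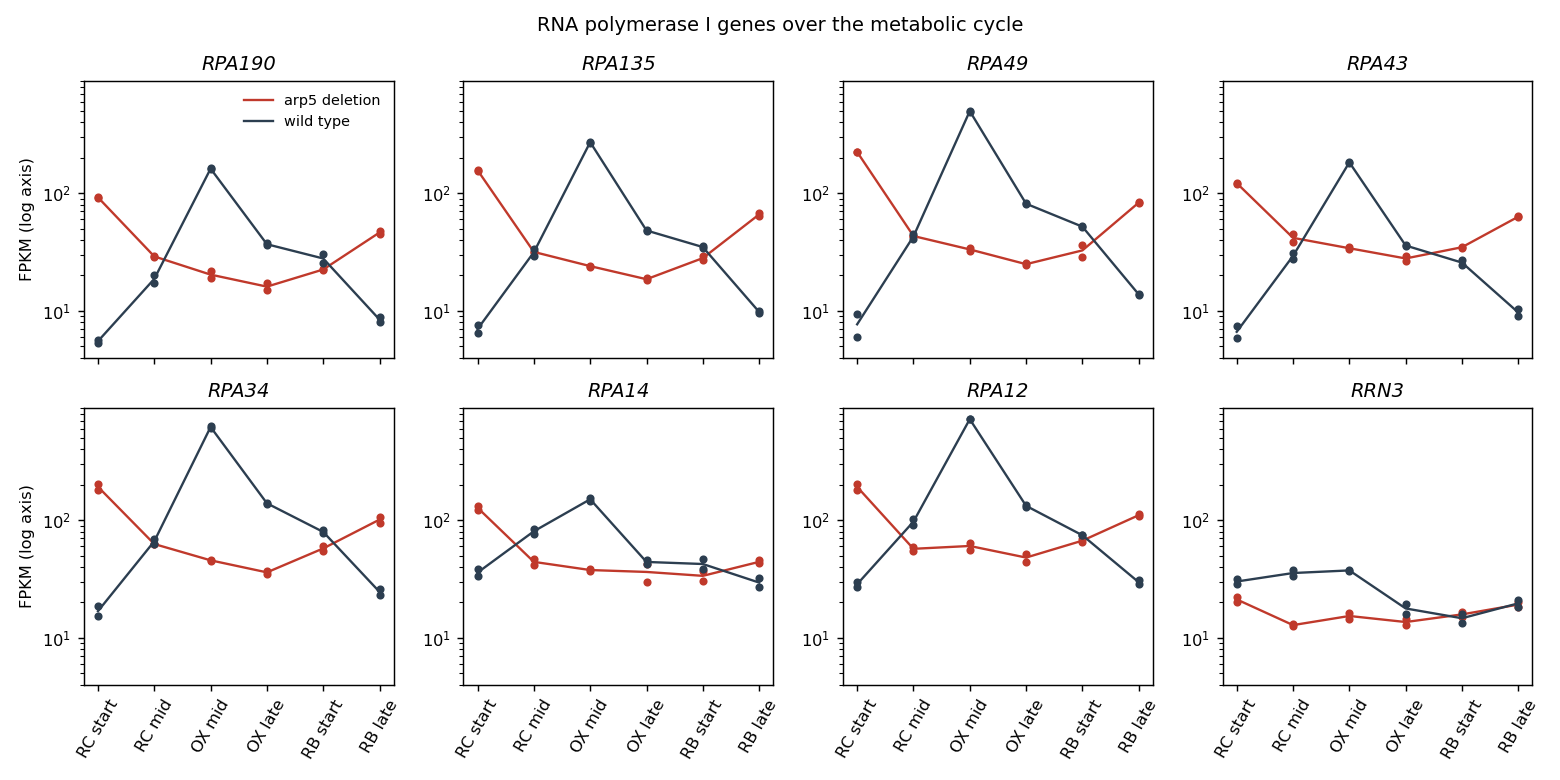
FPKM (log axis) of each gene at the 6 labelled phases, with points for libraries A and B and lines through their means, for arp5∆ (red) and wild type (dark). The subunit genes peak at RC start in arp5∆ and at OX mid in wild type, where RPA12 reaches 717.9 and 725.5 FPKM in wild type, while RRN3 stays between 12.5 and 37.7 FPKM in all 24 libraries.

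The catalytic core is formed by RPA190 and RPA135, the largest and second-largest subunits, which together hold the active site. In arp5∆, RPA190 had 90.7 and 93.8 FPKM at RC start, 29.2 and 28.8 at RC mid, 18.9 and 21.7 at OX mid, 15.0 and 17.2 at OX late, 22.4 and 22.5 at RB start, and 47.4 and 45.3 at RB late. In wild type it had 5.69 and 5.35 at RC start, 17.3 and 20.1 at RC mid, 161.0 and 162.6 at OX mid, 37.5 and 36.2 at OX late, 30.2 and 25.5 at RB start, and 8.82 and 8.01 at RB late. The genotypes did not overlap at any label, and the order turned round between labels: RPA190 was higher in arp5∆ at RC start, RC mid and RB late and lower at the other labels. RPA135 in arp5∆ had 155.5 and 158.5 FPKM at RC start, 31.8 and 31.6 at RC mid, 23.8 and 24.2 at OX mid, 18.3 and 18.8 at OX late, 29.0 and 27.2 at RB start, and 64.5 and 67.6 at RB late. Wild-type RPA135 had 7.54 and 6.47 at RC start, 33.8 and 29.2 at RC mid, 268.5 and 274.9 at OX mid, 48.4 and 48.1 at OX late, 35.7 and 34.0 at RB start, and 9.51 and 10.1 at RB late. At RC mid the genotypes overlapped for RPA135, and elsewhere they did not. The ratio of RPA190 to RPA135 in FPKM had a median of 0.807 (0.583 to 0.920, 12 libraries) in arp5∆ and of 0.754 (0.510 to 0.928, 12 libraries) in wild type, while RPA135 itself ran between 18.3 and 158.5 FPKM in arp5∆ and between 6.47 and 274.9 in wild type.

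RPA49 and RPA34 encode a heterodimer that binds the core and resembles the polymerase II factor TFIIF. In arp5∆, RPA49 had 224.9 and 223.9 FPKM at RC start, its highest phase, and 24.4 and 25.5 at OX late, its lowest. In wild type it had 505.4 and 493.6 FPKM at OX mid and 9.33 and 6.03 at RC start. That lowest pair was also the pair of libraries that differed most for any of these genes, by 0.56 on the log2 scale. RPA34 had 181.0 and 203.0 FPKM at RC start and 37.1 and 34.8 at OX late in arp5∆. Its wild-type values were 608.8 and 630.1 at OX mid and 15.2 and 18.5 at RC start. The ratio of RPA49 to RPA34 varied more than that of the core pair, with a median of 0.721 (0.526 to 1.24) in arp5∆ and 0.606 (0.326 to 0.830) in wild type.

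The stalk subunits RPA43 and RPA14 form a lobe of the enzyme, and Rpa43 is the surface to which Rrn3 binds. RPA43 in arp5∆ had 123.0 and 120.8 FPKM at RC start and 29.0 and 26.7 at OX late. In wild type RPA43 had 181.0 and 185.1 at OX mid and 7.44 and 5.82 at RC start. Its lowest level in arp5∆ was thus above the lowest in wild type, with groups that did not overlap. RPA14 had its lowest means at other labels. In arp5∆ it had 122.7 and 132.2 FPKM at RC start and 30.2 and 37.0 at RB start, its lowest mean. The arp5∆ libraries at OX late, with 42.5 and 30.0, overlapped those at RB start. In wild type it had 145.3 and 155.5 at OX mid and 32.0 and 26.9 at RB late. The lowest levels of RPA14 overlapped between the genotypes, and its range was the smallest of the 7 subunit genes in each. The ratio of RPA43 to RPA14 moved through the cycle, between 0.684 and 1.48 in arp5∆ and between 0.152 and 1.25 in wild type. The overlap of RPA14 with YDR157W, given above, limits what its range and this ratio show.

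RPA12 encodes the small subunit needed for RNA cleavage, related at one end to the polymerase II factor TFIIS. RPA12 in arp5∆ had 202.7 and 180.8 FPKM at RC start and 51.7 and 44.4 at OX late, against 717.9 and 725.5 at OX mid and 27.2 and 29.9 at RC start in wild type. Its highest phase was the highest level that any of these genes reached in the cycle set.

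RRN3, which joins polymerase I to promoter-bound factors at initiation and is not a subunit, had a course of its own. In arp5∆ it had 22.3 and 20.0 FPKM at RC start, 12.5 and 13.1 at RC mid, 16.3 and 14.3 at OX mid, 12.8 and 14.4 at OX late, 15.2 and 16.4 at RB start, and 18.2 and 20.0 at RB late. In wild type RRN3 had 31.5 and 28.6 at RC start, 33.3 and 37.7 at RC mid, 37.2 and 37.5 at OX mid, 19.5 and 16.0 at OX late, 13.4 and 15.9 at RB start, and 18.3 and 20.9 at RB late. At RC start, where all subunit genes but RPA14 were at their lowest in wild type, RRN3 was higher than at OX late, RB start or RB late. The ratio of RRN3 to RPA43 reached 4.91 in a wild-type library and stayed at or below 0.539 in every arp5∆ library. Over the 12 genotype-by-phase means of log2(FPKM + 1), RRN3 had r = 0.32 with the mean profile of the other genes, against r of 0.89 to 0.98 for each subunit gene with its others. Within a genotype the r of RRN3 was 0.86 in arp5∆ and 0.34 in wild type, over 6 phases each. These correlations are descriptions, and the phases of a genotype come from the same culture.

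Cycling was tested with limma (F test over the phases of a genotype in a fit of all 24 libraries, Benjamini-Hochberg adjusted over 6510 genes). A gene was called when the adjusted p was under 0.05 and the range of its phase means at least 1 on the log2 scale. In arp5∆ 7 of 8 were called, where 32.3% of all genes were, and in wild type 8 of 8, where 62.1% were. RRN3 in arp5∆ had an adjusted p of 0.000162 and a range of 0.68, under the minimum. The median range of the 8 genes was 2.24 in arp5∆ and 4.63 in wild type (log2), against 0.742 and 1.34 over all genes. All 8 ranges were smaller in arp5∆, and so were those of 89.1% of all genes. The widest range was that of RPA49, with 3.12 in arp5∆ against 5.88 in wild type. RPA34 had 2.38 in arp5∆ against 5.13 in wild type, RPA43 2.09 against 4.60, RPA12 1.98 against 4.62 and RPA14 1.90 against 2.32 in the same cultures. The ranges were not tested against each other, and most genes of the table had the narrower one in arp5∆.

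The steps between successive labels show when the transcripts moved. In arp5∆ 7 of 8 polymerase I genes fell between RC start and RC mid (10.2% of all genes fell), with changes of -2.35 for RPA49 to -1.51 for RPA14 on the log2 scale, and -0.68 for RRN3, which was not called. No gene of the 8 was called at the next 3 steps, where 4.65%, 1.34% and 0.507% of all genes were called either way. At these steps limma gave 6 of 8 an unadjusted p under 0.05 each time, where 50.3%, 43.0% and 40.4% of all genes had one. RPA190, RPA135 and RPA49 then rose between RB start and RB late (3 of 8, against 1.51% of all genes), by 1.01, 1.21 and 1.33. Without arp5∆ RB late library A, 2 of 8 were called there, and RPA190 had 0.98. Between RB late and RC start RPA135, RPA49 and RPA14 rose (3 of 8, against 6.71%), by 1.24, 1.42 and 1.51, and RPA190 had 0.98. Without library A of arp5∆ RC start, or without library A of arp5∆ RB late, 5 of 8 were called at this step, RPA190 and RPA34 joining with 1.00 to 1.01. RPA14 had most of its climb in this last step, with 0.39 at the step before.

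In wild type, 7 of 8 rose between RC start and RC mid (9.88% of all genes rose), by 2.36 for RPA49 to 1.15 for RPA14, and RRN3 had 0.23. Between RC mid and OX mid 6 of 8 rose further (21.5% of all genes), by 3.51 for RPA49 to 2.60 for RPA43, while RPA14 had 0.90 and RRN3 0.07. All 8 fell between OX mid and OX late (14.7% of all genes), with changes of -2.60 for RPA49 to -1.04 for RRN3. None was called between OX late and RB start (1.60% of all genes called either way; 7 of 8 had an unadjusted p under 0.05 in limma, against 41.7% of all genes), and RPA34 and RPA12 came nearest with -0.80 and -0.82. Between RB start and RB late 6 of 8 fell (8.51%), with changes of -1.84 for RPA49 to -1.30 for RPA12, with -0.51 for RPA14 and 0.40 for RRN3. None was called between RB late and RC start (4.53% either way; 6 of 8 with an unadjusted p under 0.05 in limma, against 52.7% of all genes). Without wild-type RC start library A, 1 was called there, RPA49 with -1.07. The fall after OX mid was the only step at which RRN3 was called, and this call was lost under quantile normalization (-0.98) and without wild-type OX late library B (-0.91).

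Set label against label, arp5∆ and wild type differed in opposite directions at different phases, and the test of that difference in course (limma F test of the 5 interaction terms, with the range of the genotype differences at least 1) was passed by 8 of 8 genes, where 74.0% of all genes passed it. The range of the arp5∆ minus wild type difference was 8.59 for RPA49, 7.75 for RPA135 and 1.51 for RRN3 (log2; adjusted p = 9.51e-17, 1.53e-19 and 1.79e-07). At RC start 7 of 8 were higher in arp5∆ (19.2% of all genes were), with differences of 4.73 ± 0.13 (SE) for RPA49, 4.31 ± 0.07 for RPA135, 4.02 ± 0.10 for RPA43 and 1.81 ± 0.14 for RPA14. RRN3 had -0.49 ± 0.11, not called. At RC mid only RRN3 was called, with a difference of -1.40 ± 0.11, where 11.1% of all genes were lower. The subunit genes at that label ranged from -0.85 for RPA14 to 0.61 for RPA190.

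At OX mid all 8 were lower in arp5∆ (22.0% of all genes were lower), from -3.87 ± 0.13 for RPA49 and -3.74 ± 0.09 for RPA34 to -1.97 ± 0.14 for RPA14 and -1.24 ± 0.11 for RRN3. At OX late 5 of 8 were lower (13.5%), led by RPA34 with -1.92 ± 0.09, while RPA43, RPA14 and RRN3 had -0.35, -0.29 and -0.36. None was called at RB start, where 18.7% of all genes were called either way. The differences there ran from -0.66 for RPA49 to 0.42 for RPA43, with 6 of 8 below an unadjusted p of 0.05 in limma, where 71.0% of all genes were. At RB late 6 of 8 were higher in arp5∆ (11.3%), with RPA135 at 2.64 ± 0.07 and RPA43 at 2.59 ± 0.10, while RPA14 had 0.57 and RRN3 -0.03.

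**Figure D2:**
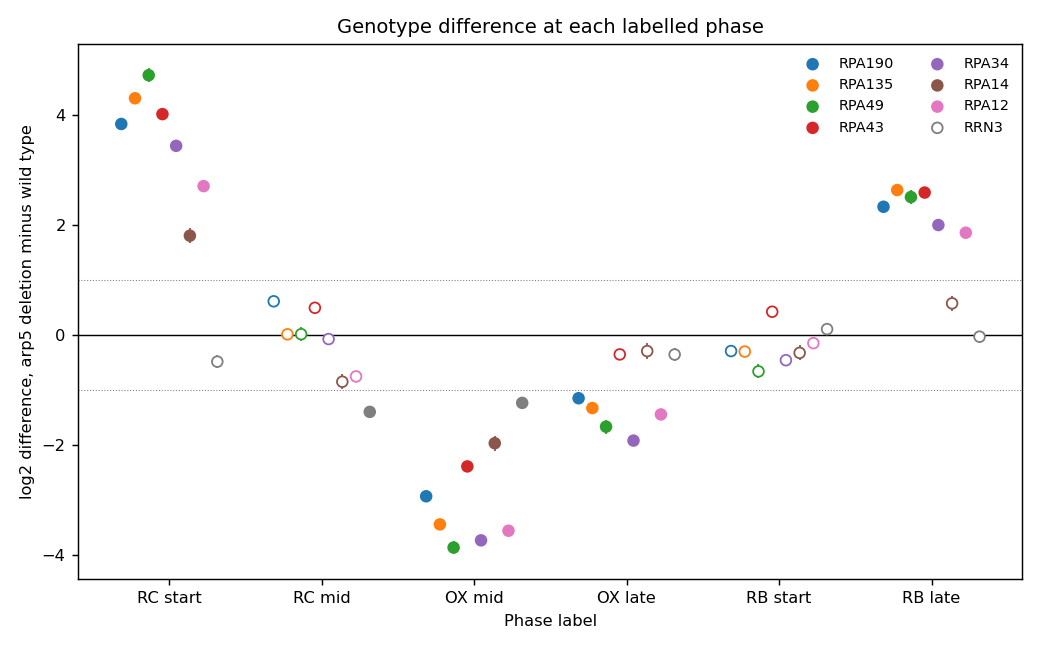
Difference between arp5∆ and wild type (log2, arp5∆ minus wild type) of each gene at each phase label, with SE bars mostly smaller than the points; filled points passed the test (adjusted p under 0.05 and at least 1 either way, dotted lines). The subunit genes lie above 0 at RC start and below 0 at OX mid, while RRN3 lies at or below 0.11 throughout.

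Because the labels did not run in parallel, the highest and lowest phases were also set side by side, with no test, since these phases were chosen from the data. At their highest phase, RC start in arp5∆ and OX mid in wild type, all 8 had lower levels in arp5∆. The differences ran from -1.91 for RPA12 and -1.69 for RPA34 to -0.58 for RPA43 and -0.24 for RPA14 (log2, median -0.80). Over all genes the median between the same labels was -0.01. Only 32.5% of all genes peaked at RC start in arp5∆ and 37.1% at OX mid in wild type. The all-gene value is therefore not a comparison of highest phases. OX late in arp5∆ and RC start in wild type were the low phases of most subunit genes. Between them the median difference of the 8 was 1.17, against 0.03 over all genes at the same labels. RPA43 was higher in arp5∆ by 1.93 and RPA49 by 1.61. RPA14 and RRN3 had 0.00073 and -1.09, but their lowest means lay at other labels. RRN3 had its lowest mean at RC mid in arp5∆ (12.8 FPKM) and at RB start in wild type (14.6 FPKM). In arp5∆ the libraries at the lowest label of RPA14 and of RRN3 overlapped those at OX late, so these low labels are not separated.

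Averaged over the 6 phases, no gene of the 8 passed the test of arp5∆ against wild type (limma on library means, blocked by phase label; 1.52% of all genes called either way). The median difference of the 8 genes was 0.02 and that of all genes 0.01 (log2). RPA190 averaged 37.7 ± 28.7 FPKM in arp5∆ and 43.2 ± 59.3 in wild type (SD over 6 phases). RPA43 averaged 53.9 ± 35.5 in arp5∆ and 48.4 ± 67.0 in wild type, and its log2 difference was the highest with 0.80 ± 0.78 (SE). RRN3 averaged 16.3 ± 3.24 FPKM in arp5∆ and 25.8 ± 9.73 in wild type and was lower in arp5∆ at 5 of 6 labels. Its difference of -0.57 ± 0.24 had an unadjusted p of 0.04999 and an adjusted p of 0.320, and it was the only one of the 8 genes under 0.05 before adjustment, where 15.6% of all genes were. The SE of the subunit genes in this test ran between 0.46 for RPA14 and 1.06 for RPA49. The test pairs phase labels that did not run in parallel between the cultures, so the swing of these genes enters its error. It therefore cannot show that mean levels were equal.

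The levels of the 8 genes kept much the same order in every set. RPA12 was highest, followed by RPA34, RPA49 and RPA135, in the mean over arp5∆ phases (89.0, 82.4, 73.6 and 54.2 FPKM), in the mean over wild-type phases (180.6, 157.6, 116.2 and 67.2) and in the rapamycin control (446.2, 437.8, 390.9 and 219.4). RRN3 was lowest in all sets, with 16.3, 25.8 and 63.0 FPKM. RPA43, RPA14 and RPA190 lay between and changed places. Over the cycle all neighbours in this order differed by less than the SD over phases of the higher gene. This SD holds the swing over the phases, not the spread of differences at each phase. RRN3 had an SD of 3.24 in arp5∆ and 9.73 in wild type, and lay below RPA190 by more than that. In arp5∆ RPA190 was above RRN3 at every label, but not in wild type. In the control, RPA12 (461.9 and 430.5) and RPA34 (442.7 and 432.9) overlapped, as did RPA190 (119.3 and 115.8) and RPA14 (113.3 and 119.2), while the other neighbours did not. The tables were scaled separately, so levels in the control and in the cycle set were not compared.

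The transcripts of the polymerase I genes were lower after 45 min of rapamycin, in 8 of 8 cases against the control (limma, adjusted over 6333 genes), where 13.7% of all genes were lower. The median change was -3.82 on the log2 scale, against 0.04 over all genes. RPA190 had 119.3 and 115.8 FPKM in the control, 7.32 and 5.02 at 45 min and 6.08 and 4.59 at 90 min. RPA135 had 224.4 and 214.4 in the control, 12.3 and 8.11 at 45 min and 12.2 and 11.9 at 90 min. For both core subunits the treated cultures stood far below the control, and the treated times overlapped. RPA49 had 408.5 and 373.3 in the control, 24.4 and 19.6 at 45 min and 23.3 and 19.1 at 90 min, and RPA43 had 179.1 and 167.4, then 10.2 and 7.64, then 11.1 and 7.69. The changes at 45 min were -4.32 ± 0.16 (SE) for RPA135, -4.15 ± 0.18 for RPA43, -4.10 ± 0.13 for RPA49 and -4.07 ± 0.17 for RPA190. Their adjusted p-values lay between 1.62e-07 and 7.54e-07.

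The other 4 genes had smaller changes. RPA34 had 442.7 and 432.9 FPKM in the control, 38.3 and 33.5 at 45 min and 29.7 and 28.0 at 90 min, changes of -3.58 ± 0.07 and -3.88 ± 0.07 from the control. RPA12 had 461.9 and 430.5 in the control, 78.9 and 65.4 at 45 min and 63.5 and 58.3 at 90 min (-2.62 ± 0.10 and -2.85 ± 0.10). RRN3 had 65.0 and 61.0 in the control, 11.97 and 11.1 at 45 min and 15.9 and 13.3 at 90 min (-2.35 ± 0.10 and -2.04 ± 0.10). In all 3 the treated values lay well below the control at both times. RPA14 stood apart with 113.3 and 119.2 in the control, 31.7 and 35.9 at 45 min and 62.8 and 57.1 at 90 min. Its change was -1.76 ± 0.08 at 45 min and -0.95 ± 0.08 at 90 min (adjusted p = 2.30e-05). The 90 min change was under the 2-fold minimum, and it passed with -1.01 when replicate 5 was left out. Values of RPA14 may include reads of the overlapping YDR157W, and this was not tested.

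At 90 min 7 of 8 were lower than in the control (16.8% of all genes), RPA14 being the exception. Both rapamycin times were set against the same control libraries. Between 90 and 45 min none of the 8 was called, where 6.30% of all genes were higher and 4.69% lower at 90 min. In limma 4 of 8 had an unadjusted p under 0.05 there, against 65.9% of all genes. RPA14 had the largest difference, 0.81 ± 0.08 (adjusted p = 0.000130), and RRN3 had 0.32 ± 0.10 (adjusted p = 0.0290). RPA34 had -0.30 ± 0.07 (adjusted p = 0.0102). The ratio of RRN3 to RPA43 was 0.363 and 0.364 in the control libraries, 1.18 and 1.45 at 45 min and 1.44 and 1.73 at 90 min, and that of RPA43 to RPA14 was 1.58 and 1.40 in the control and 0.135 to 0.320 in the treated libraries.

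**Figure D3:**
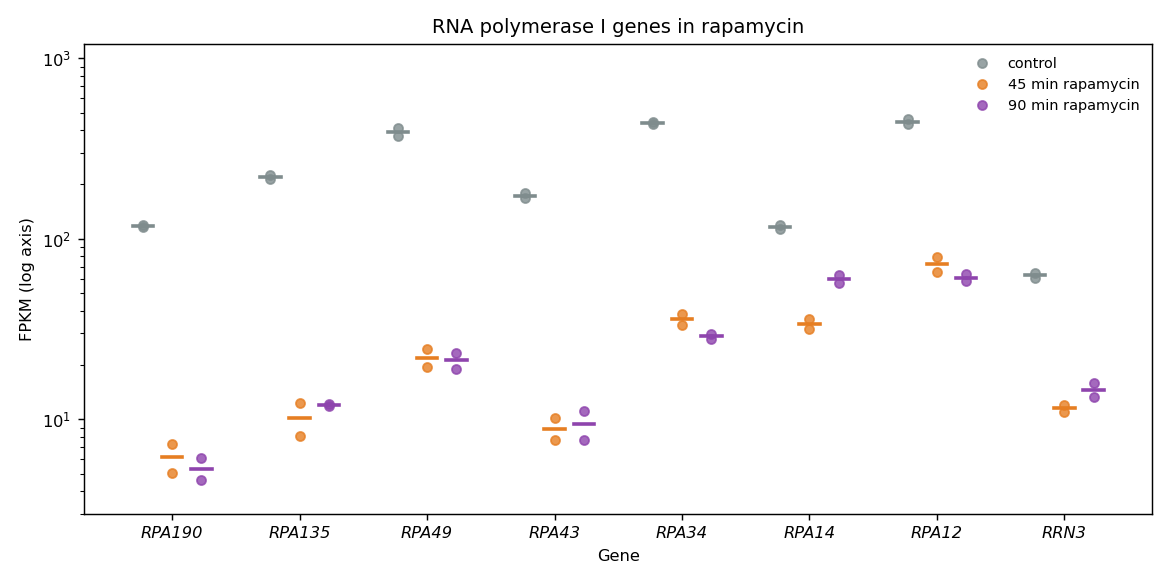
FPKM (log axis) of each gene in the 2 biological replicates (points) and their mean (bars) for the control, 45 min and 90 min in 30 nM rapamycin. RPA190, RPA135, RPA49 and RPA43 drop the most and stay low, while RPA14 stands at 62.8 and 57.1 FPKM at 90 min, above its 45 min values.

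Subunits that polymerase I shares with the other polymerases moved in the same directions as the genes above. The AC40 and AC19 subunits, shared by polymerases I and III, are encoded by RPC40 and RPC19, and both cycled in each genotype, with ranges of 2.05 and 2.19 in arp5∆ against 4.05 and 4.22 in wild type. RPC40 differed by 3.08 at RC start and -2.83 at OX mid (arp5∆ minus wild type), and RPC19 by 2.28 and -3.93, all called. Under rapamycin at 45 min RPC40 fell by 2.75 and RPC19 by 2.09. All 5 genes of subunits common to the polymerases I, II and III (RPB5, RPO26, RPB8, RPB10 and RPC10) cycled in both genotypes, were lower in arp5∆ at OX mid and fell at 45 min, from -2.16 for RPB5 to -1.24 for RPB10. At RC start 4 of the 5 were higher in arp5∆ (19.2% of all genes), and RPB10 had 0.87. Over all genes 32.3% cycled in arp5∆ and 62.1% in wild type, 22.0% were lower at OX mid and 13.7% fell at 45 min.

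The polymerase III genes followed the same directions with a smaller median range. Their single ranges ran from 1.13 to 2.36 in arp5∆ and from 2.20 to 3.34 in wild type. Those of the 7 polymerase I subunit genes ran from 1.90 to 3.12 in arp5∆ and from 2.32 to 5.88 in wild type, so the lists overlapped. All 10 cycled in arp5∆ (32.3% of all genes) and in wild type (62.1%), with median ranges of 1.50 and 2.91. All 10 were higher in arp5∆ at RC start (19.2% of all genes) and lower at OX mid (22.0%). All 10 fell at 45 min (13.7% of all genes) and at 90 min (16.8%). RPC53 fell most at 45 min, by 2.80, followed by RPC17 with 2.36. The polymerase II genes had narrow ranges: none of 7 was called cycling in arp5∆ and 1 of 7, RPB9, in wild type, with median ranges of 0.39 and 0.87. None of the 7 was called at RC start or at 45 min. RPB9 and RPB3 were lower in arp5∆ at OX mid (-1.75 and -1.15), and RPB9, RPB3 and RPO21 were lower at 90 min. No test of the difference between the lists was made.

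**Figure D4:**
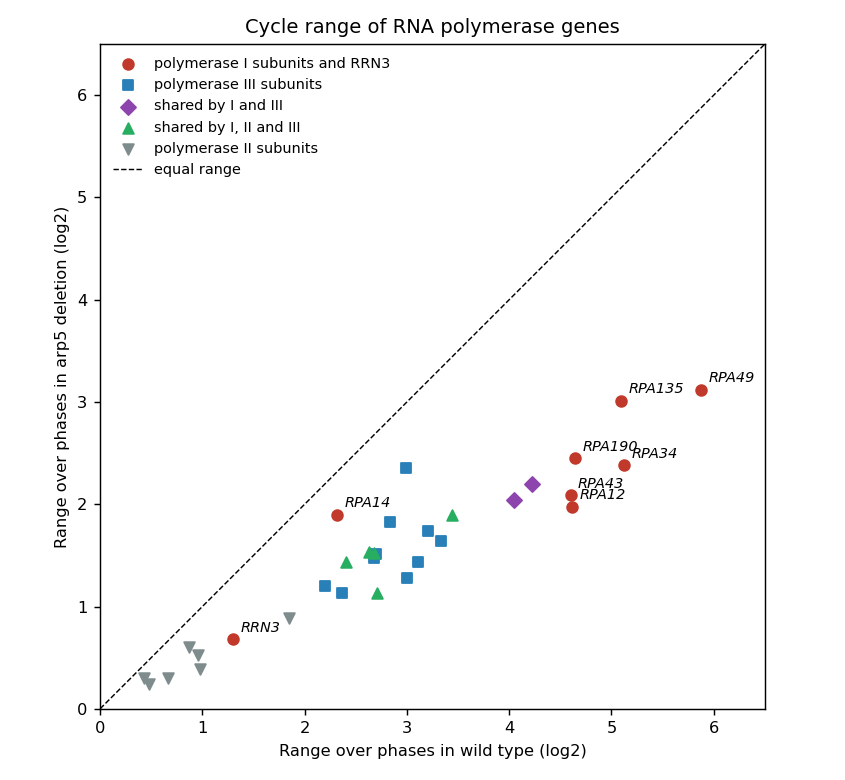
Range over the 6 phases (log2, highest minus lowest mean) of each polymerase gene in arp5∆ (vertical) against wild type (horizontal), by the polymerase it belongs to; the dashed line marks equal ranges. All points lie below the line, the polymerase I subunit genes other than RPA14 lie farthest right, between 4.60 and 5.88, and RRN3 lies beside the polymerase II genes.

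Factors that bring polymerase I to the ribosomal DNA were divided. The core factor, which binds the promoter and meets the Rrn3-bound enzyme, is encoded by RRN6, RRN7 and RRN11. All 3 cycled in wild type, were lower in arp5∆ at OX mid (-1.13, -1.78 and -2.72) and fell at 45 min (-1.35, -1.75 and -2.58). Over all genes these shares were 62.1%, 22.0% and 13.7%. RRN11 was the only one higher in arp5∆ at RC start, by 1.56. RRN11 had 10.4 ± 0.00624 FPKM at 45 min and 67.2 ± 0.398 in the control (SD, n = 2 each). Of the 5 genes of the upstream activating factor and the TATA-binding protein (RRN5, RRN9, RRN10, UAF30 and SPT15), none was called at 45 or 90 min. Over all genes 13.7% and 16.8% were lower at these times. Changes of the 5 at 45 min lay between -0.81 for UAF30 and -0.01 for RRN10. At OX mid UAF30 and SPT15 were lower in arp5∆ (-1.45 and -1.34) and RRN5 was higher (1.13).

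Among 9 genes of proteins that act on the ribosomal DNA or its transcript, 3 were lower in arp5∆ at OX mid and 2 fell at 45 min, where 22.0% and 13.7% of all genes were lower. RNT1, the RNase III gene needed to cut the ribosomal precursor, had 3.39 at RC start and -3.68 at OX mid (arp5∆ minus wild type) and fell by 2.78 at 45 min. SPT4, the gene of a transcription elongation factor, had -1.69 at OX mid. FOB1, the gene of the replication fork barrier protein, had -1.68 at OX mid and fell by 1.42 at 45 min. HMO1, an HMG-box protein that binds active ribosomal DNA, had -0.95 over the cycle and was not called. In the list of 9 growth regulators 3 were lower in arp5∆ at OX mid, 1 was higher at RC start and 1 fell at 45 min. Over all genes these shares were 22.0%, 19.2% and 13.7%. At OX mid 1 regulator was higher in arp5∆, where 2845 of 6510 genes were called either way, 1432 of them lower and the rest higher. TOD6, a repressor of ribosome biogenesis genes, had 3.12 at RC start and -3.18 at OX mid (arp5∆ minus wild type) and -4.22 at 45 min, all called. SFP1, an activator of the same genes, had -1.25 at OX mid, and STB3, a repressor, had 1.12. DOT6, the paralogue of TOD6, had -0.41, 0.90 and -0.08 in the same comparisons and was not called.

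The genes whose profile over the 12 genotype-by-phase means was most like the mean standardized profile of the 8 were RPF2 (r = 0.997), IMP4, NOP4, NOP15, DIP2, BMS1, UTP23, UTP5, LCP5 and PUS1 (r = 0.993), out of 5285 named genes. RPF2 had a range of 2.52 in arp5∆ and 4.91 in wild type, close to that of RPA190. RPC40 ranked 46 by this measure and RPC53 ranked 52. The means of a genotype come from the same culture, and r is a description.

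In the ATAC table, 24 columns name the genotype but not the phase, so 12 arp5∆ columns were set against 12 wild-type columns. They come from 1 culture per genotype, phases pooled, so columns are not independent and p-values are too small. At ARP5 the columns labelled arp5∆ had 103 to 133 (median 113), against 142 to 194 (median 167) in those labelled wild type, a difference of -0.51 that was not called. These columns therefore do not show the loss of ARP5 that the RNA shows. The window counted for each gene is not stated in the sources used here, so whether it covers the deleted part is not known, and the genotype of the columns below is as labelled. No gene of the 7 listed was called (limma on log2(value + 1); 2.58% of 5193 genes called either way), while 5 of 7 had an adjusted p under 0.05, as did 67.3% of all genes, and 6 of 7 an unadjusted one, as did 69.9%. RPA135 had 158 to 215 in arp5∆ (median 190) against 202 to 302 in wild type (median 236), a difference of -0.34 ± 0.06 (SE). RPA43, whose upstream region is shared with RPA190, had 121 to 203 (median 138) in arp5∆ against 128 to 312 (median 182) in wild type, -0.41 ± 0.12. RPA49 had 71.8 to 116 (median 86.9) in arp5∆ against 47.9 to 94.2 (median 70.0) in wild type, 0.40 ± 0.10, higher in arp5∆. The groups overlapped for all 7, where 20.0% of all genes had groups that did not overlap.

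RRN3 had 109 to 142 (median 128) in arp5∆ against 124 to 174 (median 147) in wild type, -0.24 ± 0.06. RPA34, RPA14 and RPA12 had differences of -0.19, -0.13 and 0.01. RPA14 had the highest signal of the 7, with a median of 1347 in arp5∆ and 1484 in wild type, at the 98.6th percentile of all listed genes, while RPA49 stood at the 9.80th. With the window not stated, signals of different genes cannot be compared per length.

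**Figure D5:**
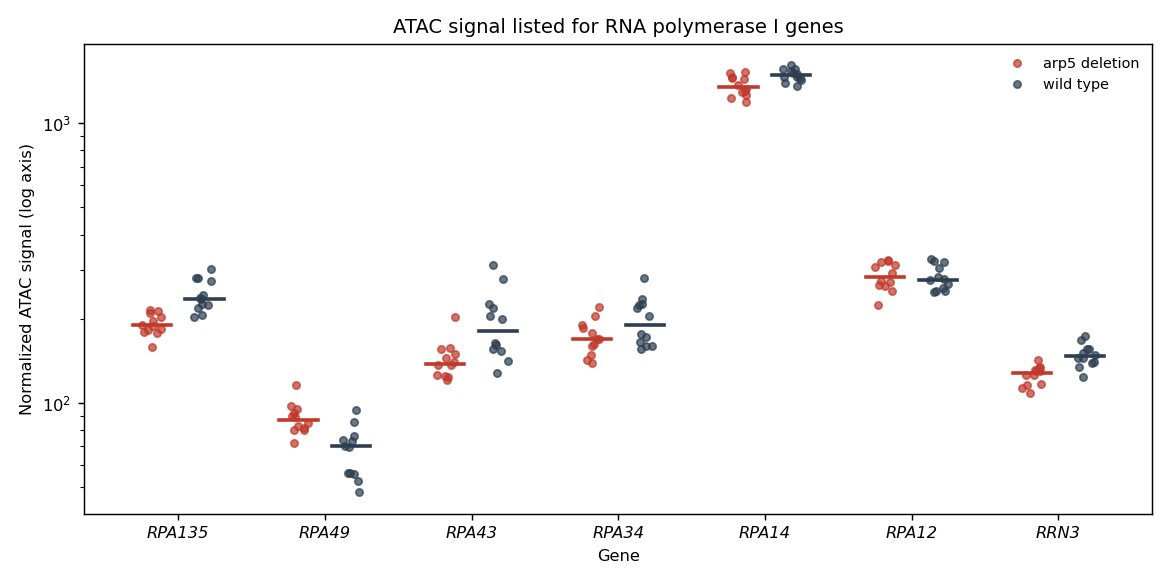
Normalized ATAC signal (log axis) of the 7 listed genes in 12 columns labelled arp5∆ (red, left of each pair) and 12 of wild type (dark, right), phases pooled, with bars at the medians. Both groups overlap at every gene, and RPA14 stands highest with medians of 1347 and 1484.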

How the data were processed

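The authors deposited FPKM values (fragments per kilobase of gene, scaled by a factor for each library) for the cycle and the rapamycin libraries in separate tables, and a signal described by its file as normalized ATAC counts for 24 columns that name only the genotype. The submitters' processing notes name Bowtie2, DESeq2, Picard and the build sacCer3, without versions; strand handling and read assignment are not given there. Depth was read from the steps of low FPKM values, which came out as whole reads within 0.1 of a read for 95.9% to 99.5% (cycle) and 95.5% to 99.4% (rapamycin). Replicate libraries had r of at least 0.988 across genes. A and B letters did not pair libraries across groups (66 pairs of groups, median r of deviations 0.0343).

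The 6510 cycle and 6333 rapamycin genes whose mean reached 1 FPKM were tested with limma 3.58.1 in R 4.3.3 (intensity trend) on log2(FPKM + 1), a scale that understates changes at low levels. Calls combine an adjusted p below 0.05 (Benjamini-Hochberg, all genes) with a log2 change, or range for F tests, of at least 1. ATAC values were tested in the same way on log2(value + 1). Figures were drawn with matplotlib 3.10.9.

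The 8 genes and the other gene lists were chosen with earlier results of these data known. All 8 are named. From other lists at most 2 called genes per direction and comparison, or lists of up to 5 in full, are named. The 10 genes most like the 8 were ranked by Pearson r. DOT6, HMO1 and RPO21 were named after their values were seen. Alternatives were a pseudocount of 0.1, no filter, quantile normalization, each library left out and a replicate block. Promoter and protein sequences were not used here, and the planned motif description was not run.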

Additional observations from a re-analysis of the deposited data

Results flagged for a closer look

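The course over the phase labels differed between arp5∆ and wild type for all 8 polymerase I genes by the interaction F test in limma. The range over the 6 labels of the arp5∆ minus wild type difference was 6.77 for RPA190, 7.75 for RPA135, 8.59 for RPA49, 6.41 for RPA43, 7.18 for RPA34, 3.78 for RPA14, 6.27 for RPA12 and 1.51 for RRN3 (log2). Since 74.0% of all genes passed this test, the count says little about these genes in particular. The shift of the phase labels between the cultures, and the use of 1 culture per genotype, stand beside these values, and their part in them was not tested.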

How the results depend on the processing

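Counts of polymerase I genes that passed a test kept within 1.5 times of their reported value under a pseudocount of 0.1, no filter, quantile normalization and the library letter as a replicate block. With that block 8 of 8 still cycled in wild type and 7 of 8 in arp5∆, and the letters did not pair libraries. Under quantile normalization, and without wild-type OX late library B, 7 rather than 8 fell between OX mid and OX late in wild type, without RRN3. Leaving out 1 library gave 2 to 3 called genes between RB start and RB late and 3 to 5 between RB late and RC start in arp5∆, 0 to 1 at that last step in wild type, and 7 to 8 at 90 min of rapamycin. The count of all genes called over the cycle, 99, was 65 under quantile normalization, 323 with 24 separate libraries, phase and replicate block, and 26, 59, 6, 1 and 12 without RC mid, OX mid, OX late, RB start and RB late; in each of these fits 0 of the 8 genes were called. Reversals touched only differences that were not called. Quantile normalization gave -0.0370 for RPA135 and 0.0081 for RPA34 at RC mid, -0.0224 for RRN3 at RB start and -0.0072 for RPA43 between 90 and 45 min. Over the cycle, RPA190, RPA135 and RPA49 had -0.29, -0.49 and -0.74 without RC start; RPA34, RPA14 and RPA12 had 0.60, 0.18 and 0.44 without OX mid; RPA34 and RPA12 had 0.23 and 0.0196 without OX late; and RPA135 and RPA49 had -0.15 and -0.29 without RB late. With 1 library left out, RPA135 ranged between -0.0922 and 0.1136 and RPA49 between -0.0648 and 0.0910 at RC mid, and RRN3 between -0.0080 and 0.2187 at RB start and between -0.1206 and 0.0564 at RB late. For 90 against 45 min the ranges were -0.4022 to 0.0631 for RPA190, -0.0281 to 0.5207 for RPA135, -0.2010 to 0.1045 for RPA49 and -0.1764 to 0.2974 for RPA43. The cause was not tested. With 1 culture per genotype no p-value covers differences between cultures.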
